A study of Homo sapiens with 118 samples.

Results

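Messenger RNA of 10 hepatic nuclear receptors was measured in HepaRG cells exposed to histone deacetylase inhibitors. The receptors were NR1I2 (PXR), NR1I3 (CAR), NR1H4 (FXR), NR1H3 (LXRα), NR0B2 (SHP), NR5A2 (the liver receptor homolog), PPARA, PPARG, RXRA and ESR1. They were chosen by name, as every row of the count table whose probe name without its trailing number equalled 1 of these symbols. This gave 15 probe rows of 22068, and 10 gene symbols of 19470. NR1I2, NR1I3, PPARA, RXRA and ESR1 had 2 probes each, and the other 5 had 1. Probe names are printed as deposited, and levels were not compared between probes, since probes differ in efficiency.

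Nuclear receptors are transcription factors that bind small lipophilic molecules and switch genes according to them. In liver, PXR and CAR sense drugs and other foreign chemicals and drive their clearance. FXR senses bile acids, and acts through SHP, which lacks a DNA binding domain, to restrain the bile acid synthesis genes that NR5A2 drives. LXRα senses oxysterols, PPARα senses fatty acids in fasting, and RXRα is the partner with which PXR, CAR, FXR, LXRα and the PPARs bind DNA. Histone deacetylases take part in repression by these receptors through corepressor complexes.

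HepaRG is an established human liver progenitor line, used here differentiated, when its cultures hold both hepatocyte-like and biliary-like cells. Each of 118 TempO-Seq libraries came from cells exposed for 72 h, with daily renewal, to 1 of 8 inhibitors at 1 of 5 concentrations, named C1 (lowest) to C5 (highest). Replicates 1, 2 and 3 of a group were, per the labels, HepaRG batches, so that n = 3 in 38 of 40 groups. HepaRG comes from 1 donor, so the spread between replicates is that between batches of 1 line. Replicate 3 was missing at panobinostat C3 and at trichostatin A C4, which had n = 2. From C1 to C5 the labelled concentrations were 0.041722 to 0.86 µM for apicidin, 0.177222 to 3.9 µM for mocetinostat, 0.001468 to 0.084 µM for panobinostat and 4.94 to 94.5 µM for scriptaid. They were 1.143333 to 44 µM for tacedinaline, 0.018811 to 1.5237 µM for trichostatin A and 0.404778 to 23.5 µM for vorinostat. Valproic acid was labelled 100.478 to 3038 in a unit that the labels do not settle. Panobinostat, scriptaid, trichostatin A and vorinostat are hydroxamic acids, mocetinostat and tacedinaline are benzamides, apicidin is a cyclic tetrapeptide and valproic acid is a short-chain fatty acid. All groups carried an inhibitor. Solvent controls were not used here, so C1 of the same chemical was the reference, and any change that had already happened at C1 is out of sight. Concentrations differ between the chemicals, so their values are given side by side and no chemical was tested against another. Sample titles also carry the letter E for scriptaid, tacedinaline and vorinostat and H for the other 5 chemicals. Differences between these sets of chemicals cannot be told apart from that split.

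Levels are CPM, a count relative to the scaled total of its library. Total counts per library lay between 1061359 and 5250260. They were lower at C5 than at C1 in 2 chemicals without overlap, namely mocetinostat (3045318 to 3704165 against 4023177 to 5220707) and scriptaid (1785844 to 3123879 against 3211351 to 4181109). Vorinostat C5 was the shallowest group, with 1061359 to 1879287 counts. Hepatocyte markers were present in the C1 libraries. Markers of other cell types were mixed. CDH5 of endothelial cells, PTPRC of leukocytes and EPCAM of biliary cells had 0 counts in all 24. KDR of endothelial cells (median 7 CPM), CD68 (43.2) and CD14 (4.9) of macrophages and SOX9 of biliary-like cells (23.1) were detected in all. These markers do not settle which other cell types were present. In 7 of 118 libraries the best correlation with a library of the same group was under 0.91, against at least 0.927 in the others. They were apicidin C4 replicate 1, mocetinostat C2 replicate 3 and C3 replicate 1, panobinostat C2 replicate 2, scriptaid C4 replicate 3, trichostatin A C1 replicate 3 and valproic acid C4 replicate 3. Apicidin C4 replicate 1 and mocetinostat C3 replicate 1 correlated best with each other (r = 0.937), and mocetinostat C2 replicate 3 with mocetinostat C1 replicate 2 (r = 0.965). Only trichostatin A C1 replicate 3 enters a comparison of C5 with C1, although all libraries of a chemical share 1 estimate of spread.

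The promoters of the receptors with a single listed start and large falls are shown first, for NR1I3 and NR1H4. These are the 250 bases before the RefSeq start (GRCh38.p14), printed in the direction of transcription. Capitals mark matches to AGGTCA or TGACCT, the half-site of many nuclear receptors, and to GTTAAT or ATTAAC, a half-site of the liver factor HNF1.
NR1I3, chr1:161238204-161238453, minus strand: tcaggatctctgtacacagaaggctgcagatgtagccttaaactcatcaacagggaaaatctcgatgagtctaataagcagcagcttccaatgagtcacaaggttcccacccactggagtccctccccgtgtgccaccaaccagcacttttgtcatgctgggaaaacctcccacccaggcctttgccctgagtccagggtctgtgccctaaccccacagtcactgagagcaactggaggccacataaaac
NR1H4, chr12:100503110-100503359, plus strand: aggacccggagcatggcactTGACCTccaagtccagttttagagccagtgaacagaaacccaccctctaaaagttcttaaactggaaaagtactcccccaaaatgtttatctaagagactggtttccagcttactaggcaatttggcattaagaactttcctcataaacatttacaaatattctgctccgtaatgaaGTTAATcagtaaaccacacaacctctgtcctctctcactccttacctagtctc
The NR1H4 window held TGACCT 230 bases and GTTAAT 53 bases upstream of the start. Neither set of letters was in the NR1I3 window. The GC content was 52.8% for NR1I3 and 42% for NR1H4, against a median of 58% over all 35116 windows of the table. Of all windows, 12.1% held the nuclear receptor half-site and 6.23% the HNF1 half-site. Of the 26 windows listed for 9 of the 10 receptors, 6 and 5 held them. Some windows of PPARG overlap and share the same AGGTCA, so these counts are not of independent windows and were not tested. A match is a run of letters and not a measured binding site.

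At the highest concentration most receptor probes were lower than at C1. A probe was called when its adjusted p was under 0.05 and its fold change at least 1.5, in edgeR's quasi-likelihood test over all probes. Of 91 combinations of receptor probe and chemical that could be tested, 57 were called lower, against 13.4% of all probes tested in the 8 chemicals. Only 2 were called higher, against 11.6%, and both were ESR1. ESR1 could be tested only through the groups in which it was high, and NR0B2, with 1 lower call, only through C1 and C2, so these 3 of the 59 calls were partly built in. The called changes had the same sign in all 3 batches in each of the 59 combinations. Libraries of C5 and C1 overlapped in 2 of them, namely NR1H3 in apicidin and NR1I3_90298 in panobinostat. In bulk lysates, fewer cells of a type and less RNA per cell cannot be told apart.

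The extent of the fall differed between the chemicals' ranges. Vorinostat C5 had 10 of 11 tested receptor probes called lower (24.9% of all probes tested in that chemical). Mocetinostat had 11 of 13 (15.7%), and tacedinaline had 10 of 12 (20.1%). Apicidin had 9 of 11 (15%), and scriptaid had 9 of 11 (17%). Panobinostat had 4 of 11 (9.46%), from 4 genes, and valproic acid had 4 of 11 (6.22%), from 2 genes, NR1I2 and NR1I3. Trichostatin A had 0 of 11 (0.0154%), with 1 at an unadjusted p under 0.05 and 0 by DESeq2. The median log2 change of the receptor probes was -3.74 in mocetinostat, -2.79 in scriptaid, -2.27 in tacedinaline and -2.12 in vorinostat. It was 0.20 in trichostatin A, -0.56 in valproic acid, -0.89 in panobinostat and -1.29 in apicidin, while the median of all probes lay between -0.0018 and 0.084. For these medians, probes with 0 counts at C5 were set to their bound. The trichostatin A median was the value of PPARA_17989, which was -0.15 without the C1 library of replicate 3 that stands apart. A median without that library was not computed, so the sign of this median is not settled. Panobinostat had 2 calls without replicate 1 and 1 without replicate 2 or 3, and valproic acid had 2 without replicate 1.

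**Figure D1:**
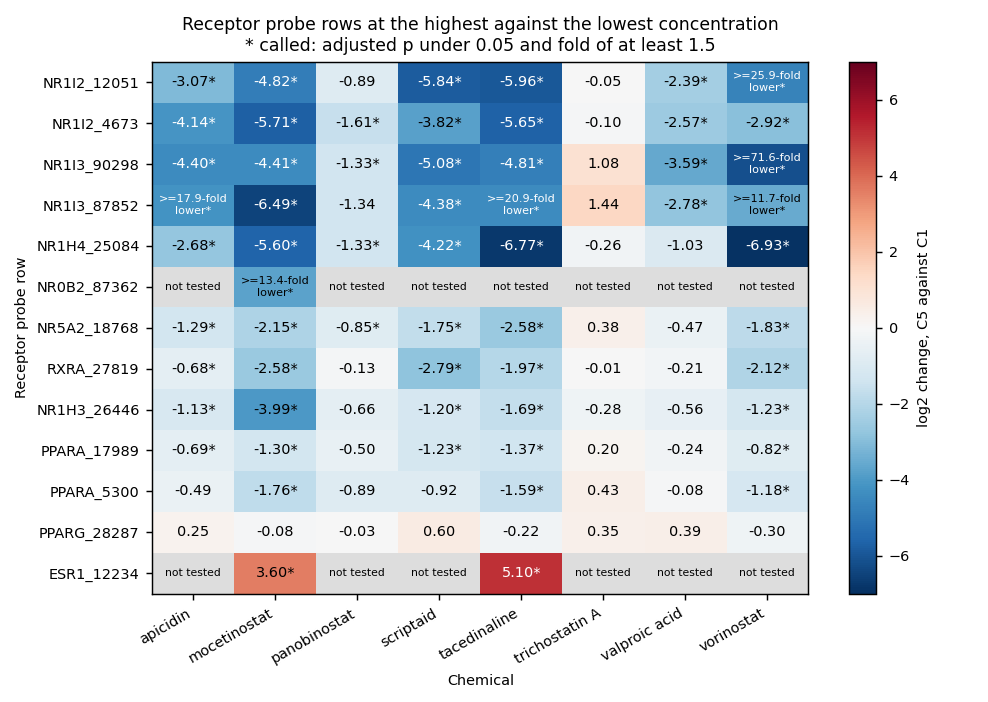
Log2 change from C1 to C5 of every tested receptor probe (rows) in 8 chemicals (columns), blue for lower and red for higher. Stars mark calls, grey cells were not tested, and a cell with a fold gives a bound for a group with 0 counts. NR1I2, NR1I3 and NR1H4 are the darkest blue rows, PPARG has no star, and the trichostatin A column has none.

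The xenobiotic sensors NR1I2 and NR1I3 fell furthest together with NR1H4. NR1I3_90298 was called lower in 7 of 8 chemicals at C5. In vorinostat its level in replicates 1, 2 and 3 was 44.3, 50.5 and 33.3 CPM at C1, 27.0, 16.0 and 19.2 at C3, 4.80, 0 and 0.907 at C4, and 0 in all 3 libraries at C5. The C3 libraries lay below those of C1, but that change was not called (-1.02, SE 0.381, adjusted p = 0.0982), and the change at C4 was (-4.88, SE 0.528). The 388 counts of C1 became 0, which made C5 at least 71.6-fold lower (bound from 3 counts over the group, adjusted p = 6.8e-10). In tacedinaline it went from 49.2, 31.0 and 31.5 CPM to 1.00, 2.41 and 0, a log2 change of -4.81 (SE 0.568, adjusted p = 3.08e-09). The log2 change was -5.08 (SE 0.711) in scriptaid, -4.41 (SE 0.533) in mocetinostat, -4.40 (SE 0.565) in apicidin and -3.59 (SE 0.52) in valproic acid. In all 4 the C5 libraries lay below every C1 library.

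Panobinostat and trichostatin A differed from this. In panobinostat NR1I3_90298 was 24.5, 32.4 and 13.2 CPM at C1 and 15.9, 7.45 and 4.95 at C5, so that the groups overlapped. The log2 change of -1.33 (SE 0.431, adjusted p = 0.0354) lost its call without replicate 2 (-0.87, adjusted p = 0.224) or without replicate 3 (-1.30, adjusted p = 0.0846), and in 1 fit of all libraries (adjusted p = 0.101). In trichostatin A it was 23.7, 28.1 and 1.20 CPM at C1 and 50.0, 31.9 and 28.3 at C5, a log2 change of 1.08 (SE 0.538, adjusted p = 0.541). The C1 library of replicate 3, at 1.20 CPM, is the one that stands apart, and without it the change was 0.53 (adjusted p = 0.508). With no filter on low counts this change was called (1.07, adjusted p = 0.0438). The second CAR probe, NR1I3_87852, followed the first (r = 0.93 over 40 group means). It was called lower in 6 chemicals, with 0 counts at C5 in apicidin, tacedinaline and vorinostat, at least 17.9-fold, 20.9-fold and 11.7-fold lower. Its call in valproic acid (-2.78, adjusted p = 0.0429) was lost with the batch as a block (adjusted p = 0.054) and without any 1 batch, and that in scriptaid without replicate 2.

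NR1I2, whose product PXR induces CYP3A4, was called lower in 7 chemicals by NR1I2_4673 and in 6 by NR1I2_12051. NR1I2_12051 in tacedinaline was 20.8, 18.3 and 22.6 CPM at C1 and 0.500, 0 and 0.412 at C5 (log2 change -5.96, SE 0.715, adjusted p = 4.47e-09). In vorinostat its 138 counts at C1 became 0 at C5, at least 25.9-fold lower (adjusted p = 6.25e-06). NR1I2_4673 remained detected there, with 22, 59 and 45 counts at C1 and 3, 0 and 5 at C5 (log2 change -2.92). In valproic acid NR1I2_12051 was 23.1, 29.4 and 10.9 CPM at C1 and 2.75, 6.19 and 3.11 at C5, separate groups with a log2 change of -2.39 (SE 0.41), a call lost without replicate 1 (adjusted p = 0.0586). Calls differed between the probes in panobinostat. There NR1I2_4673 was called (-1.61, SE 0.437, adjusted p = 0.0129), though not without replicate 2 or 3, and NR1I2_12051 was not (-0.89, SE 0.353, adjusted p = 0.0889), although its C5 libraries lay below those of C1. Across the 40 group means the probes had r = 0.96. In trichostatin A the changes were -0.10 and -0.05, and leaving out replicate 2 turned both positive.

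At mocetinostat C2, replicates 1 and 2 of NR1I2_4673 were 66.9 and 49.8 CPM, above the C1 libraries (23.1, 23.8 and 33.5 CPM). Replicate 3 was 15.2 CPM, below them, and this is the C2 library that correlated best with a C1 library. NR1I2_12051 showed the same split, with 41.2 and 42.6 CPM in replicates 1 and 2 and 12.3 CPM in replicate 3. NR1I2 was not called at C2 with or without that library.

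NR1H4, the bile acid receptor, was called lower in 6 chemicals. In tacedinaline it was 60.0, 54.9 and 40.6 CPM at C1, 14.5, 15.9 and 6.96 at C3, 0.397, 0 and 0 at C4, and 0.500, 0.345 and 0.412 at C5. From C4 on the probe was at 3 counts or fewer over the group. The log2 change at C5 was -6.77 (SE 0.532, adjusted p = 4.57e-14). In vorinostat 283 counts at C1 became 1 at C5 (log2 change -6.93, SE 0.795, adjusted p = 7.6e-09), and in mocetinostat 664 became 12 (-5.60, SE 0.749). The falls were smaller in apicidin (-2.68, SE 0.443) and panobinostat (-1.33, SE 0.32, adjusted p = 0.00545). The panobinostat call was lost without replicate 1 or 2. In valproic acid C5 held 6.76, 21.7 and 14.1 CPM against 28.9, 33.6 and 24.1 at C1. These groups were separate, but the change of -1.03 (SE 0.358, adjusted p = 0.0655) was not called. It was called by DESeq2 (adjusted p = 0.0476), with no filter on low counts (adjusted p = 0.0119) and with C4 replicate 3, which stands apart, left out (adjusted p = 0.027).

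**Figure D2:**
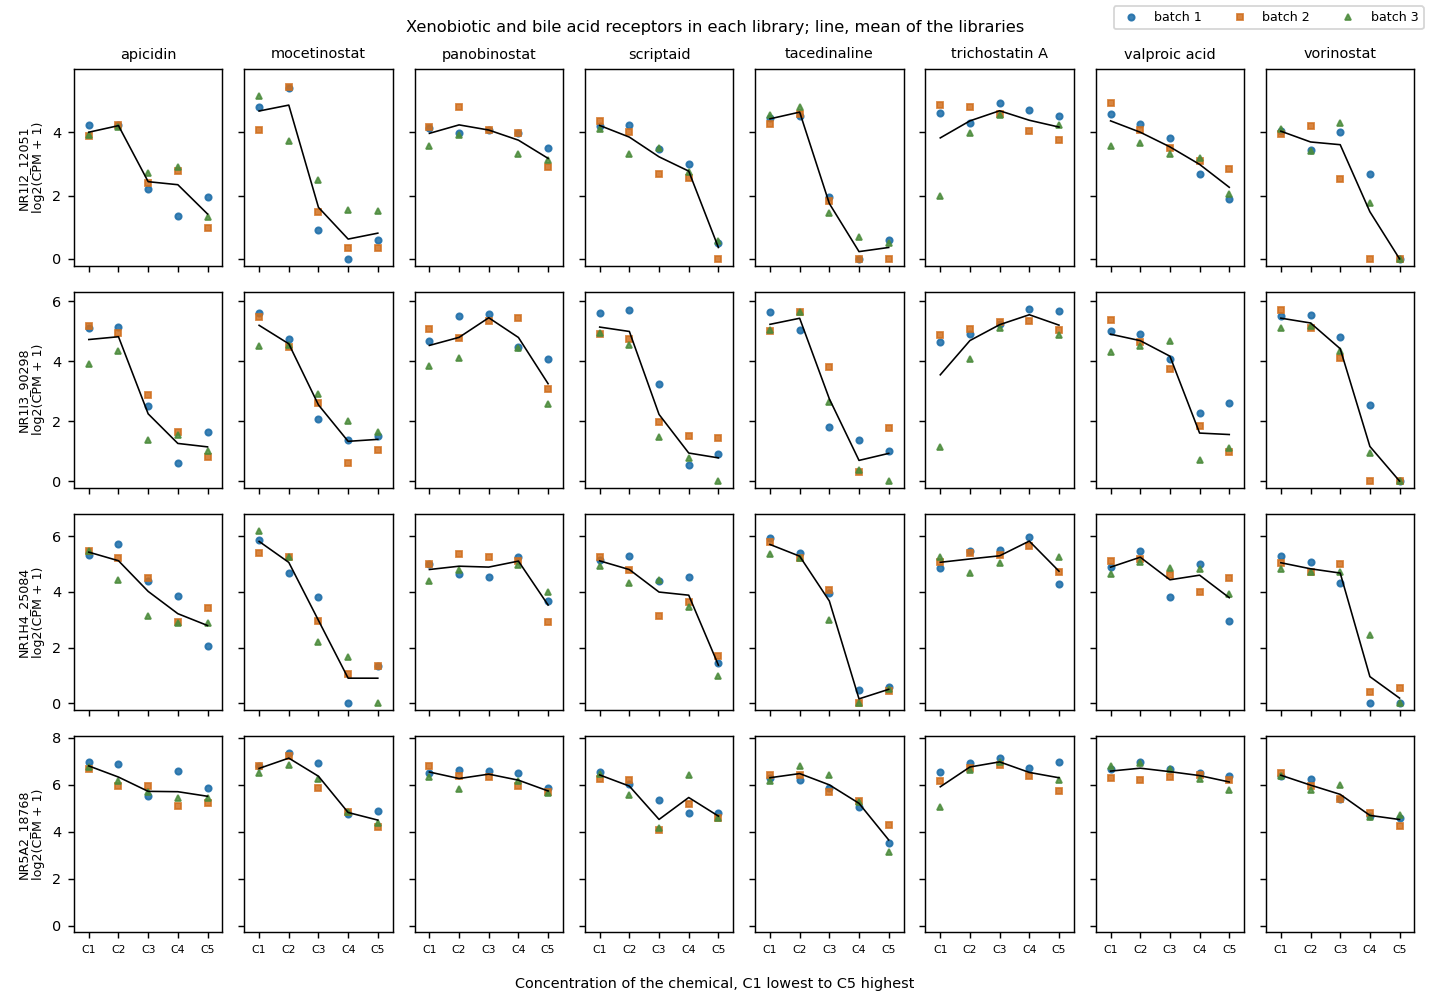
Level of NR1I2_12051, NR1I3_90298, NR1H4_25084 and NR5A2_18768, as log2(CPM + 1), in every library at C1 to C5, 1 panel per chemical. Symbols are the HepaRG batches and lines join the group means. NR1I2, NR1I3 and NR1H4 lie at or below 2.41 CPM in every C5 library of vorinostat, tacedinaline and mocetinostat. In trichostatin A no change at C5 was called, and the C1 library of replicate 3 lies low for NR1I2 and NR1I3.

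NR5A2, which drives bile acid and cholesterol genes, kept a measurable level in every library. It was called lower in 6 chemicals, the same 6 as NR1H4, with a smaller log2 change in each, a difference that was not tested. In tacedinaline it was 77.5, 84.4 and 70.8 CPM at C1 and 10.5, 18.3 and 7.84 at C5 (log2 change -2.58, SE 0.268, adjusted p = 1.26e-10). In panobinostat it was 88.5, 111.1 and 78.4 CPM at C1 and 57.0, 50.7 and 48.7 at C5, separate groups with a log2 change of -0.85 (SE 0.219, adjusted p = 0.00926). That call was lost without any 1 batch (adjusted p = 0.0504 to 0.063) and with all 118 libraries in 1 fit (adjusted p = 0.0545). The change was -2.15 (SE 0.296) in mocetinostat, -1.83 (SE 0.241) in vorinostat, -1.75 (SE 0.409) in scriptaid and -1.29 (SE 0.316) in apicidin. The scriptaid call was lost without replicate 2 (adjusted p = 0.0566) and the apicidin call without replicate 3 (adjusted p = 0.0693). It was not called in valproic acid (-0.47, SE 0.213, adjusted p = 0.181) or trichostatin A (0.38, SE 0.316, adjusted p = 0.751).

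NR0B2, the corepressor SHP, was near the limit of detection. Its median at C1 was 0.919 CPM, and 58 of 118 libraries had 0 counts. It was tested only in mocetinostat, where C1 held 15, 18 and 11 counts, C2 held 22, 13 and 7, and all 9 libraries of C3, C4 and C5 held 0. It passed the filter on low counts through C1 and C2 alone. C5 was at least 13.4-fold lower (adjusted p = 0.00592), a call lost without replicate 2. All C5 libraries of apicidin, scriptaid, tacedinaline and vorinostat also had 0 counts, from sums of 15, 8, 16 and 7 counts over C1, with no test. Panobinostat C5 had 13 counts over the group against 3 at C1.

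RXRA_27819, the probe of the shared partner RXRα, was called lower in 5 chemicals. In scriptaid it was 45.5, 40.1 and 35.9 CPM at C1 and 11.5, 4.83 and 0.483 at C5 (log2 change -2.79, SE 0.505, adjusted p = 0.000423). In mocetinostat it was 59.6, 59.7 and 51.0 CPM at C1 and 4.17, 15.5 and 7.34 at C5 (-2.58, SE 0.416). In both chemicals the C5 libraries spanned a wider range than those of C1, but none overlapped with C1. The change was -2.12 (SE 0.361) in vorinostat and -1.97 (SE 0.307) in tacedinaline. In apicidin it was -0.68 (SE 0.198, adjusted p = 0.0126), a call lost without replicate 1 (adjusted p = 0.134) or replicate 2 (adjusted p = 0.091) and in 1 fit of all libraries (adjusted p = 0.0805). In panobinostat it was 50.3, 51.6 and 44.2 CPM at C1 and 51.7, 40.6 and 42.6 at C5, overlapping groups with a change of -0.13 (SE 0.218). Changes of -0.21 (SE 0.216) in valproic acid and -0.01 (SE 0.276) in trichostatin A were not called either. The second probe, RXRA_23625, had 20 counts in all 118 libraries and was never tested.

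NR1H3, the oxysterol sensor, was called lower in 5 chemicals. In mocetinostat it was 17.1, 16.4 and 18.4 CPM at C1 and 1.30, 0.774 and 0.918 at C5 (log2 change -3.99, SE 0.518, adjusted p = 2.41e-05). In the others the change was smaller, at -1.69 (SE 0.496) in tacedinaline, -1.23 (SE 0.439) in vorinostat, -1.20 (SE 0.392) in scriptaid and -1.13 (SE 0.354) in apicidin. These 4 calls were lost when at least 1 batch was left out, and that of apicidin, where the groups overlapped, without any of the 3.

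PPARA, the receptor of the fasting response, was called lower in 5 chemicals by PPARA_17989 and in 3 by PPARA_5300. The largest change of either was -1.76 (SE 0.323) for PPARA_5300 in mocetinostat, where it was 27.6, 35.6 and 34.8 CPM at C1 and 9.90, 7.74 and 9.79 at C5. In tacedinaline both probes fell, by 1.37 (SE 0.316) and 1.59 (SE 0.388) on the log2 scale. Only PPARA_17989 was called in apicidin (-0.69, adjusted p = 0.0364; PPARA_5300 -0.49, adjusted p = 0.17) and scriptaid (-1.23, adjusted p = 0.00807; PPARA_5300 -0.92, adjusted p = 0.0686). This contrast between the probes was not stable. The apicidin call was lost without any 1 batch, with no filter on low counts (adjusted p = 0.0623) and in 1 fit of all libraries (adjusted p = 0.107). In scriptaid PPARA_17989 lost its call without replicate 1 (adjusted p = 0.186), and PPARA_5300 gained one in 1 fit of all libraries (adjusted p = 0.0101). The PPARA_17989 calls in mocetinostat and vorinostat were also lost without single batches, and so was that of PPARA_5300 in vorinostat. The probes had r = 0.871 over the 40 group means.

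PPARG, the adipogenic receptor, was the one receptor with a probe tested in all 8 chemicals and called in none. Its C1 libraries lay between 142 and 264 CPM (median 188), and its C5 changes between -0.30 and 0.60. In apicidin and valproic acid the C5 libraries lay above those of C1, with changes of 0.25 (SE 0.133, adjusted p = 0.172) and 0.39 (SE 0.195, adjusted p = 0.236). In vorinostat they lay below, at 148, 159.8 and 142 CPM against 177, 213 and 205 (-0.30, SE 0.151, adjusted p = 0.0924). In scriptaid PPARG was 169, 208 and 264 CPM at C1, 80.9, 117 and 550.0 at C4, and 405, 301 and 233 at C5. The value of 550.0 CPM, the highest PPARG level in the series, belongs to scriptaid C4 replicate 3, which stands apart. Without that library PPARG was called lower at C4 (-1.15, SE 0.243, adjusted p = 0.00268). The scriptaid change at C5 was 0.60 (SE 0.483, adjusted p = 0.374), and without replicate 3 it was 0.94 and called (adjusted p = 0.00143).

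**Figure D3:**
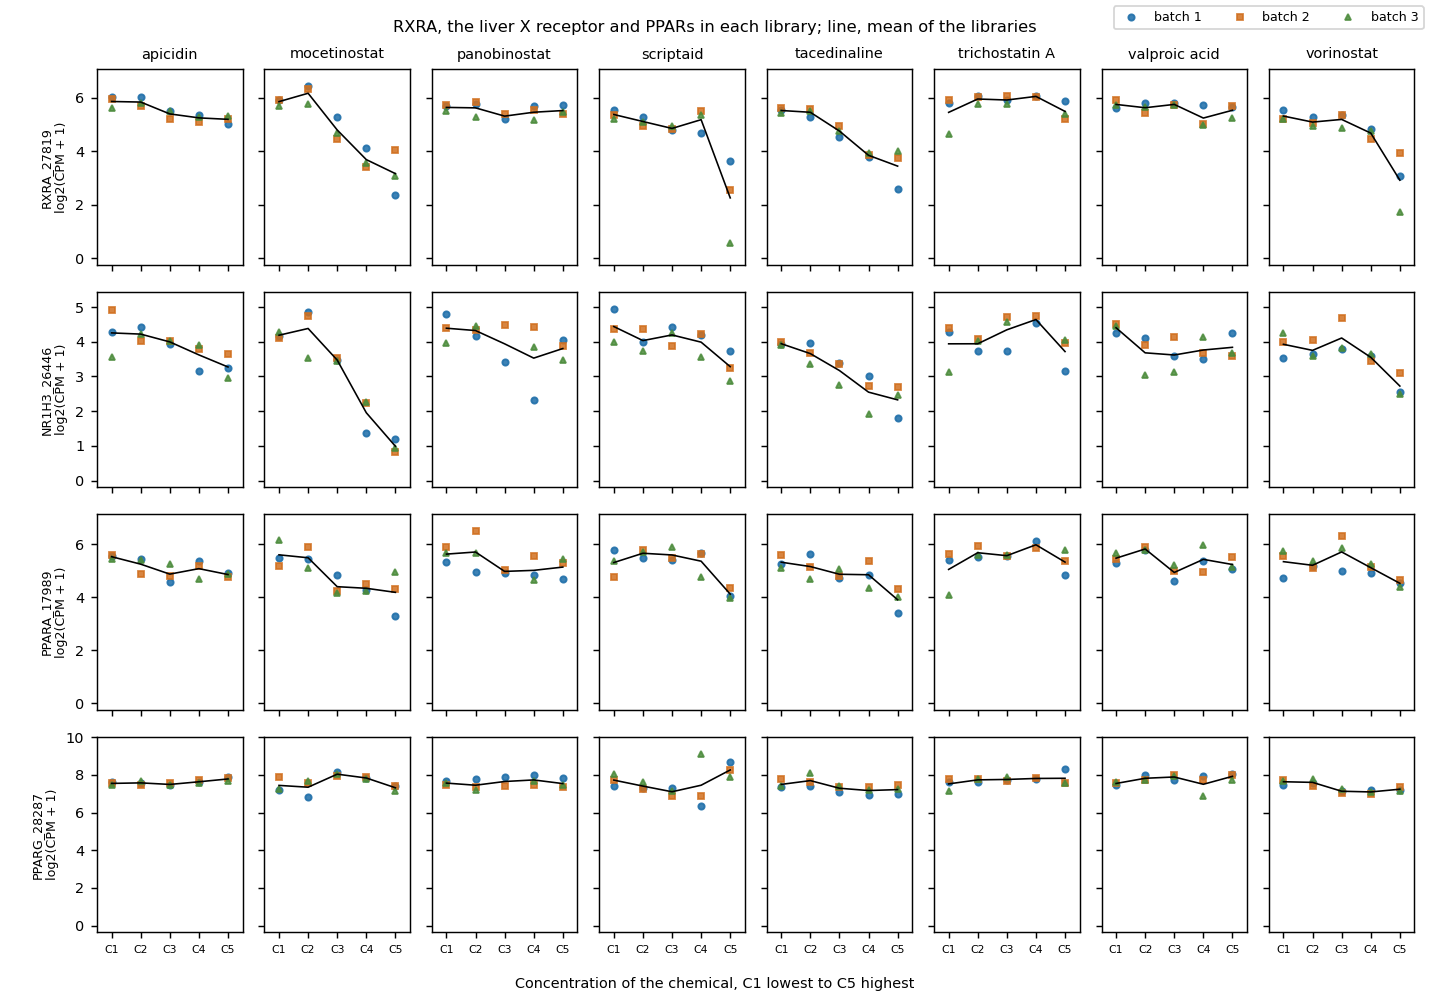
Level of RXRA_27819, NR1H3_26446, PPARA_17989 and PPARG_28287, as log2(CPM + 1), in every library at C1 to C5, 1 panel per chemical, with symbols for HepaRG batches and lines through group means. RXRA and NR1H3 decline in mocetinostat, scriptaid, tacedinaline and vorinostat, and PPARG stays between 80.9 and 550.0 CPM, both values from scriptaid C4.

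ESR1, the estrogen receptor α, was the only receptor called higher, in both benzamides. In tacedinaline ESR1_12234 had 0, 1 and 0 counts at C1, 10, 12 and 5 at C4, and 18, 15 and 4 at C5 (log2 change 5.10, SE 1.31, adjusted p = 0.00154; 18.7% of all probes were called higher). In mocetinostat it had 3, 0 and 2 counts at C1, 26, 18 and 14 at C4, and 41, 6 and 12 at C5 (3.60, SE 1.21, adjusted p = 0.032; 14.8%). The libraries of C5 lay above those of C1 in both. The probe passed the filter on low counts only through the groups in which it was high, so a difference was built into its being tested. The mocetinostat call was lost without any 1 batch (adjusted p = 0.0589 to 0.177). In apicidin ESR1_12234 had 0 counts in all C1 libraries and 16, 1 and 4 at C5, with no test, and it was untested in the 5 other chemicals. In panobinostat it had 11, 2 and 2 counts at C1 and 0, 0 and 2 at C5. In valproic acid these were 13, 1 and 3 at C1 and 2, 5 and 0 at C5. Scriptaid had 2, 2 and 0 at C1 and 2, 0 and 0 at C5. Trichostatin A had 2, 4 and 0 and then 2, 0 and 4, and vorinostat 1, 7 and 0 and then 3, 0 and 3. The second probe, ESR1_2235, had 22 counts in all libraries and was never tested.

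**Figure D4:**
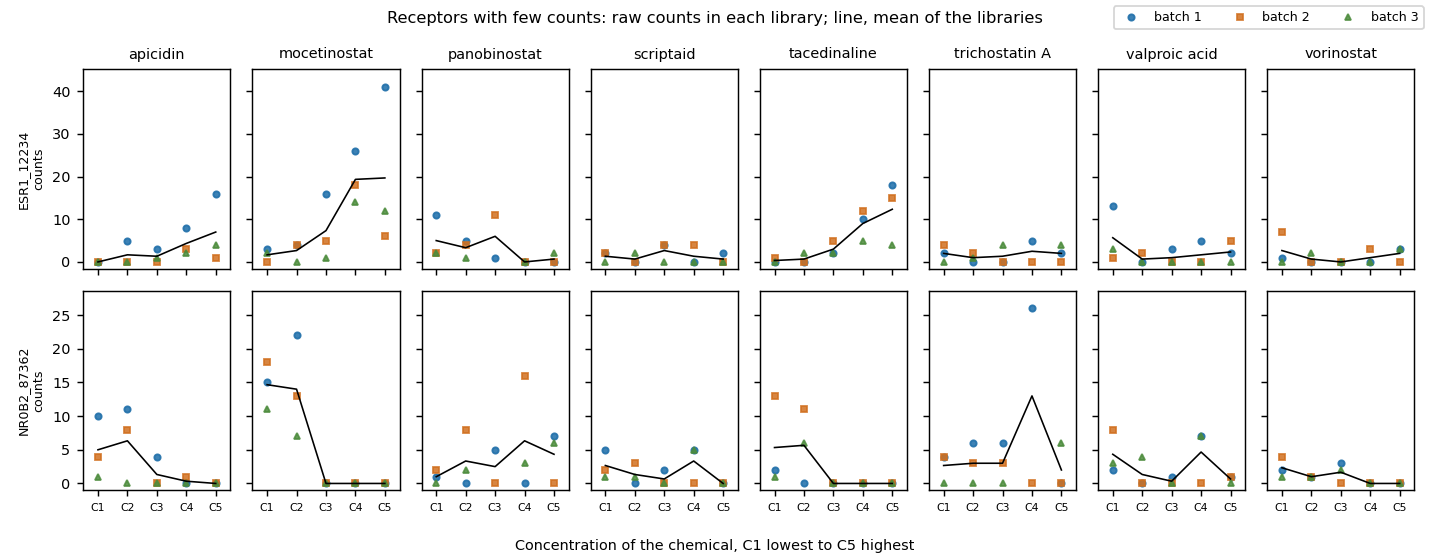
Raw counts of ESR1_12234 and NR0B2_87362 in every library at C1 to C5, 1 panel per chemical, with symbols for HepaRG batches. ESR1 counts reach 41 in mocetinostat and 18 in tacedinaline at C5, while NR0B2 is at 0 from C3 on in both benzamides.

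Calls of the receptors first appeared at different steps of the series, and neither steps nor receptors were tested against each other. At C2, 0 of 91 combinations were called (0.0865% of all probes), with 3 at an unadjusted p under 0.05 and 0 by DESeq2. At C3, 21 were called (5.98%), in 5 chemicals. These were 6 in apicidin (15.3%), 7 in mocetinostat (11.6%), 3 in scriptaid (1.34%), 4 in tacedinaline (11.9%) and 1 in vorinostat (7.06%). These counts were often lower with 1 batch left out, when fewer samples entered the fit. Apicidin had 1 call at C3 without replicate 3, mocetinostat 1 without replicate 2, scriptaid 0 without replicate 1 or 2, and vorinostat 0 without replicate 1 or 2. With all batches, NR1I3_90298 was among the C3 calls in apicidin, mocetinostat, scriptaid and tacedinaline. Its log2 changes ran from -2.42 in tacedinaline to -3.07 in scriptaid. The vorinostat call was NR5A2 (-0.79, SE 0.223, adjusted p = 0.0228). At C4, 37 were called (16%), in 6 chemicals. These were 6 in apicidin (22.3%), 12 in mocetinostat (23.7%), 2 in scriptaid (4.87%), 9 in tacedinaline (32.8%), 2 in valproic acid (11.9%) and 6 in vorinostat (32.3%). In valproic acid they were NR1I3_90298 (-3.61, SE 0.524) and NR1I2_12051 (-1.59, SE 0.391). In scriptaid both were NR1I3 probes. Without scriptaid C4 replicate 3 its count was 5, with NR5A2, NR1I2_12051 and PPARG lower as well. Without mocetinostat C2 replicate 3, NR5A2 was called higher at C2 in mocetinostat (0.60, SE 0.222, adjusted p = 0.0358). Without replicate 1, 2 or 3 in all chemicals, C3 had 12, 8 and 11 calls, and C4 had 31, 24 and 32.

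Levels were correlated across the 40 group means of log2 CPM, which share chemicals, batches and C1 libraries, so r is given as a description. NR1I2_12051 had r = 0.958 with NR1H4 and 0.908 with NR1I3_90298, the highest of 45 receptor pairs. PPARG had r between -0.10 and 0.37 with the receptors other than ESR1. ESR1_12234 had negative r with every other receptor, from -0.715 with NR1H3 to -0.179 with PPARG. Among 11287 candidate probes, the 3 with patterns nearest to NR1I2_12051 were AGXT (r = 0.978), BAAT and GCKR (0.97 each). AGXT detoxifies glyoxylate, BAAT conjugates bile acids, and GCKR regulates glucokinase. Those nearest to NR1I3_90298 were AGXT2 (0.971), ACSM2B and STAP2 (0.96 each), and those nearest to NR1H4 were AQP9 (0.965), ANXA13 (0.964) and BLNK (0.961).

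Genes known as targets of the receptors were counted over the 8 chemicals at C5, against 13.4% lower and 11.6% higher among all probes tested. Some of these lists mix genes that a receptor drives with genes that it restrains. A share called lower is therefore not a measure of receptor activity. PXR and CAR targets were lower in 69 of 123 tests (56.1%) and higher in 2. CYP2C8, a drug-metabolising cytochrome P450, was called lower in 7 chemicals, in vorinostat from a mean of 183 CPM to 1.29. CYP3A4_90076, of the main drug-metabolising P450, was also lower in 7, in mocetinostat from 71.7 to 0.754 CPM (log2 change -6.48, SE 0.536). The 2 higher calls were POR_5283, of the electron donor of cytochromes P450, and ALAS1, the first enzyme of heme synthesis, both in scriptaid. The other POR probe, POR_23019, was called lower in 1 chemical.

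FXR targets were lower in 40 of 65 tests (61.5%) and higher in none. ABCB11_82408, a probe of the bile salt export pump, was lower in 6 chemicals, in apicidin from 13.6 to 1.24 CPM (-3.41, SE 0.741). SLC10A1, the bile acid uptake transporter, was called lower in 4 of 7. Targets of NR5A2 and SHP were lower in 21 of 31 tests (67.7%). CYP7A1, the rate-limiting enzyme of bile acid synthesis, was lower in 7 chemicals, in valproic acid from 72.5 to 0.479 CPM (-7.15, SE 0.62). CYP8B1, which makes the cholic acid precursor, was also lower in 7, in mocetinostat from 16.5 to 0.189 CPM.

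LXR targets went both ways, with 24 of 59 tests lower (40.7%) and 12 higher (20.3%). ABCG5 and ABCG8, which form the sterol exporter, were each lower in 7 chemicals, ABCG5 in apicidin from 11.4 to 0.0827 CPM. PPARα targets were lower in 32 of 91 tests (35.2%) and higher in 10 (11%). CYP4A11, a fatty acid hydroxylase, was lower in 6 of 7.

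PPARγ targets were lower in 8 of 33 tests (24.2%) and higher in 10 (30.3%). FABP4, a fatty acid carrier of adipocytes, was higher in 7 chemicals, in mocetinostat from 2.97 to 88.5 CPM (4.98, SE 0.404). CIDEC, a lipid droplet protein, was lower in 6, in mocetinostat from 235 to 4.47 CPM (-5.62, SE 0.311). Targets of the estrogen receptor were lower in 22 of 45 tests (48.9%) and higher in 5 (11.1%). In mocetinostat and tacedinaline, where ESR1 was called higher, GREB1_14205 was lower (-4.78, SE 1.02, and -2.13, SE 0.798) and so was PDZK1, a scaffold of membrane transporters (-4.89, SE 0.525, and -6.43, SE 0.346). All 5 higher calls were CA12_20197, of a carbonic anhydrase, and they included mocetinostat (1.01, SE 0.218) and tacedinaline (0.91, SE 0.185), beside apicidin, scriptaid and vorinostat.

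The 38 other nuclear receptor genes had counts near the background, with 25 of 217 tests lower (11.5%) and 32 higher (14.7%). HNF4A, a main regulator of hepatocyte genes, was lower in 6 chemicals, in tacedinaline from 23.3 to 0.960 CPM (-4.52, SE 0.66), and HNF4G was lower in 7. The 18 coregulator genes were likewise near it, with 22 of 183 tests lower (12%) and 31 higher (16.9%). NCOA2, a coactivator, was lower in 7 chemicals, in vorinostat from 289 to 43.8 CPM (-2.63, SE 0.202). HDAC3, the deacetylase of the nuclear receptor corepressor complexes, was higher in 5, in scriptaid from 57.1 to 270 CPM (2.29, SE 0.3).

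**Figure D5:**
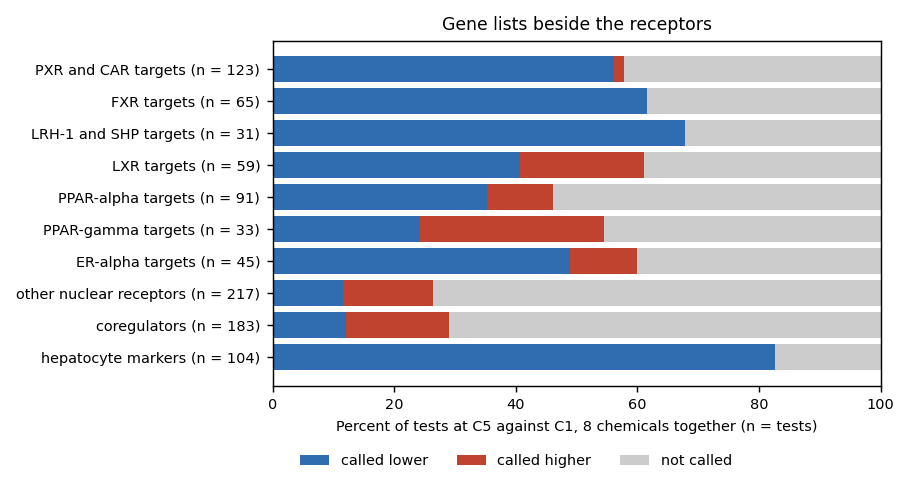
Percent of tests called lower, called higher and not called at C5 against C1 over the 8 chemicals, for each gene list. Hepatocyte markers and the targets of NR5A2, FXR and PXR or CAR have the largest shares lower, and other nuclear receptors and coregulators the smallest of the receptor lists.

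Of the cell type markers, only those of hepatocytes fell in most tests at C5. Among all probes tested, 13.4% were lower and 11.6% higher. Hepatocyte markers were lower in 86 of 104 tests (82.7%) and higher in none, and 3 of the 12 marker genes are also in another list. Their summed level at C5 was lowest in the 4 chemicals with the lowest receptor medians. In tacedinaline it was 43400 to 57200 CPM at C1 and 3120 to 4450 at C5, and in vorinostat 39000 to 48500 and 3530 to 6650. In mocetinostat it was 56100 to 71600 and 7670 to 9440 CPM, and in scriptaid 42500 to 47400 and 5520 to 8500. The sums were 48700 to 63500 and 17800 to 21200 CPM in apicidin, 47500 to 56200 and 16900 to 22000 in valproic acid, and 44100 to 53000 and 23400 to 30300 in panobinostat. In trichostatin A the ranges overlapped, at 14000 to 58000 and 37800 to 49300 CPM, with 14000 in the C1 library that stands apart. That library also gave the lowest C1 level of 10 receptor probes. Biliary and progenitor markers were higher in 11 of 33 tests (33.3%) and lower in none. SPP1 and SOX9, genes of biliary-like cells, were higher in 5 chemicals each, SOX9 in apicidin from 27.0 to 96.9 CPM (1.85, SE 0.228). The other higher call was KRT19_3690, a keratin of biliary cells. The more abundant KRT19_10816, at a median of 36.9 CPM over the C1 libraries, was called in none of 8 chemicals, with a median change of -0.17. Mesenchymal markers were lower in 27 of 64 tests (42.2%) and higher in 8, with COL3A1 lower in 7 chemicals and COL1A1 higher in 6. Endothelial markers were lower in 1 of 10 tests (10%, KDR), and macrophage markers in 3 of 16 (18.8%, CD14 in 2 chemicals and CD68 in 1). Both shares were near that of all probes. The part of a shift in cell types in the receptor values was not tested.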

How the data were processed

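Differentiated HepaRG cells were lysed and profiled with TempO-Seq, which ligates paired detector probes on their transcripts and sequences the products. The deposited table holds raw counts of reads for each probe, not normalised. The submitters' processing notes name bcl2fastq 2.20.422, fastp 0.23.2, STAR 2.7.10b and DESeq2 1.38.0, and the genome build is not given in the sources used here. Of 22069 rows, 1 lacked values and was left out, and 118 libraries were used.

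A model per chemical was fitted with edgeR 4.0.16 under R 4.3.3 (filterByExpr, trimmed mean of M values, quasi-likelihood F test), without a batch term, and C2 to C5 were compared with C1. Benjamini-Hochberg adjustment ran over all probes of a comparison. A standard error is |log2 change| over the root of F. CPM values were scaled over all 118 libraries. Where a group had 0 counts, the fold is a bound from 3 counts over the group. Such bounds take in counting error alone, as the reads carried no molecular identifiers. Depth limits rare probes most.

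The labels tie each replicate number to a HepaRG batch, which pairs the samples. Between libraries of the same batch (232 pairs), deviations from the group means correlated with a median r of 0.0299, against -0.0122 between batches (464 pairs). A fit with the batch as a block was an alternative, beside RLE factors, DESeq2 1.42.0, no filter, 1 fit of all libraries, probes summed, and leaving out a batch, the trichostatin A C1 library of replicate 3 or, chosen after seeing the data, the 7 libraries that stand apart. The receptors, the gene lists and the tests were chosen with earlier results of these data known. All 10 receptors are named. From each gene list the 2 probes with the largest median C5 change among those called in at least 4 chemicals are named, and those of counts of 5 or fewer. Some genes that this rule would name are not reported here. Nearest patterns are the 3 with the highest Pearson correlation of group means (prior count 2), for 3 receptors. The test was checked on simulated data, where it recovered 54.5% to 82.8% of 4-fold changes at C5 in the 8 chemicals. Of 2-fold changes it recovered 3.06% (mocetinostat) to 55.8% (tacedinaline). Few probes were changed there, in mocetinostat 98 by 2-fold and 99 by 4-fold among 12702 tested. Except in trichostatin A, many more were called at C5 in the data, which makes the adjustment less strict than in the simulation. How often changes near 2-fold were missed in the data is therefore not known from it. Promoters were read from a RefSeq table, which held 9 of the 10 receptors (not NR0B2).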

Additional observations from a re-analysis of the deposited data

How the results depend on the processing

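Of the 59 receptor calls at C5, 38 were made in every alternative in which the probe was tested and 53 in every such alternative other than leaving out a batch. Tacedinaline and vorinostat held no library that stands apart, and NR1I3_87852 in vorinostat was not tested without replicate 2. Over all 8 chemicals, leaving out 1 batch gave 43 to 50 calls at C5, 24 to 32 at C4 (37 with all batches), 8 to 12 at C3 (21) and 0 at C2 (0). Fewer samples enter those fits. By chemical, C5 then held 6 calls in apicidin (9 in all batches), 9 to 11 in mocetinostat (12), 1 to 2 in panobinostat (4), 6 to 10 in scriptaid (9), 10 to 11 in tacedinaline (11), 0 in trichostatin A (0), 2 to 3 in valproic acid (4) and 7 to 10 in vorinostat (10). The gene lists held 379 to 444 calls, against 474. With all 118 libraries in 1 fit, panobinostat had 2 calls at C5 and C2 had 1 call. With the libraries that stand apart left out, C2 had 1 call, and panobinostat C5 and valproic acid C5 had 5 each. Trichostatin A had 1 call with no filter on low counts, and valproic acid 2 with the probes of a symbol summed, which leaves fewer rows. Apart from these, the cause was not tested.

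With the HepaRG batch as a replicate block, valproic acid had 3 calls at C5, since NR1I3_87852 was not called (-2.74, adjusted p = 0.054), and apicidin had 5 at C3. The counts at C5 in the other chemicals were as without the block.

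Changes of sign occurred only in probes that were not called. In trichostatin A the log2 change of NR1I2_12051 was 0.12 with the block and ran from -0.56 to 0.59 without 1 batch, that of NR1I2_4673 from -0.395 to 0.376, and that of NR1H3_26446 from -0.76 to 0.11. RXRA_27819 was at 0.035 with the block and between -0.24 and 0.36 without 1 batch. PPARA_17989 was at -0.15 without the C1 library of replicate 3 and between -0.39 and 0.53 without 1 batch. Elsewhere the range without 1 batch was -0.295 to 0.111 for PPARG in mocetinostat, -0.12 to 0.024 for PPARG in panobinostat, and -0.21 to 0.015 for PPARA_5300 in valproic acid.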
